A study of Homo sapiens with 8 samples.

Results

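The genes of the LSD1-CoREST corepressor complex and of its GFI1 partners were followed in MV4-11 cells treated with an LSD1 inhibitor, a CDK4/6 inhibitor or both. The members were the rows of the deposited expression table that carry the symbols KDM1A, RCOR1, RCOR2, RCOR3, HDAC1, HDAC2, PHF21A, HMG20B, GFI1 and GFI1B, which are 10 of 26364 genes. MV4-11 is a human acute myeloid leukemia (AML) line that carries an MLL-AF4 fusion and an internal tandem duplication of FLT3, and every group was made from it. Control cells received DMSO, the vehicle that all groups shared. TCP cells received tranylcypromine, an LSD1 inhibitor, at 5 μM, palbociclib cells received the CDK4/6 inhibitor at 0.5 μM, and combination cells received both molecules at these doses. The labels give day 4 for every library, whereas the methods describe the CDK6 inhibitor alone for the first day and both molecules afterwards, so the time under TCP alone is not settled. Each of the 4 groups held 2 libraries of poly(A) RNA, 8 in all, from a single line, and nothing states that the 2 libraries of a group came from separate cultures, so p-values measure the spread between these libraries, which may be technical.

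LSD1, encoded by KDM1A, is a flavin-dependent enzyme that removes methyl groups from lysine 4 of histone H3. A CoREST scaffold protein (RCOR1, RCOR2 or RCOR3) holds it together with the histone deacetylases HDAC1 or HDAC2, PHF21A reads unmethylated lysine 4, and HMG20B is a DNA-binding subunit. GFI1 and GFI1B are zinc-finger repressors whose N-terminal SNAG domain binds LSD1 and brings the complex to its sites in myeloid and in erythroid and megakaryocytic cells, respectively, and tranylcypromine inactivates LSD1 by reacting with its flavin cofactor.

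The promoters of KDM1A and HDAC2 are shown because these genes had the clearest decreases, and that of GFI1B because GFI1 and GFI1B are known to bind the GFI1B gene itself. The sequences are the 250 bases before a transcription start in RefSeq on GRCh38.p14, and capitals mark AATCA, the core of the GFI1 motif. KDM1A is at chr1:23019218-23019467 on the plus strand, HDAC2 at chr6:113971149-113971398 on the minus strand and GFI1B, at the second of its 2 starts in RefSeq, at chr9:132978444-132978693 on the plus strand.
KDM1A: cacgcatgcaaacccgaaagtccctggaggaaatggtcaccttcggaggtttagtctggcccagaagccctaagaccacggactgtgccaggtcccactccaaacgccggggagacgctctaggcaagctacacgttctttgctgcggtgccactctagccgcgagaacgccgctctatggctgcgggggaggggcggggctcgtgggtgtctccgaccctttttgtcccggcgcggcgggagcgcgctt
HDAC2: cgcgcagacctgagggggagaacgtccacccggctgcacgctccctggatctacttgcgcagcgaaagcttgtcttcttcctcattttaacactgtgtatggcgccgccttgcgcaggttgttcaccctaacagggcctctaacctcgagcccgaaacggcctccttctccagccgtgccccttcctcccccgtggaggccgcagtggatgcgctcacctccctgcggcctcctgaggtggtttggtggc
GFI1B: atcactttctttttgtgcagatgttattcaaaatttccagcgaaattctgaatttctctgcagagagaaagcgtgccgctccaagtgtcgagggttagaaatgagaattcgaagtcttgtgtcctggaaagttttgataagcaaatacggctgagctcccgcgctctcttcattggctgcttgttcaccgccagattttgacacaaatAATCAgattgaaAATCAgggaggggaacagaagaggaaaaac
The GFI1B window held AATCA at 42 and at 30 bases before the start, and the KDM1A and HDAC2 windows held none. Searched on both strands, AATCA was present in 31.42% of 35116 RefSeq promoters of this length and in 4 of the 15 windows of the 9 members that matched an entry, which belong to GFI1B, GFI1 and HDAC1. An E2F core (TTGGCGC, or TTCCCGC, or TTGCCGC, or TTCGCGC, on either strand) was present in 10.88% of all promoters and in 0 of the 15 windows. When the window was extended by 30 bases past the start, an extension chosen after that count had been seen and with a KDM1A match across the start in view, 1 of the 15 windows held it, that of KDM1A, beside 12.18% of all promoters. These matches describe letters only, and binding was not measured.

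Values are TPM, a measure of transcript abundance, which are corrected for gene length and sum to 1e+06 in each library, so that levels can be compared between genes but the sequencing depth is unknown. In control cells the members spanned a wide range of levels. HDAC1 was the highest with 214 ± 11.7 TPM (SD, n = 2), followed by GFI1 with 200.1 ± 0.414 TPM and HMG20B with 139 ± 3.30 TPM. KDM1A, HDAC2 and RCOR1 followed with 82.3 ± 3.79, 64.7 ± 0.455 and 58.0 ± 1.30 TPM. RCOR3, PHF21A and RCOR2 were lower, with 24.2 ± 0.970, 17.4 ± 0.00512 and 7.05 ± 0.867 TPM, and GFI1B stayed below 1 TPM in both libraries. No neighbours in this order overlapped between their control libraries. With palbociclib RCOR1 ranked above KDM1A, and with the combination GFI1 ranked above HDAC1. RCOR1 was therefore the main CoREST transcript, and of GFI1 and GFI1B, GFI1 was the expressed gene.

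**Figure D1:**
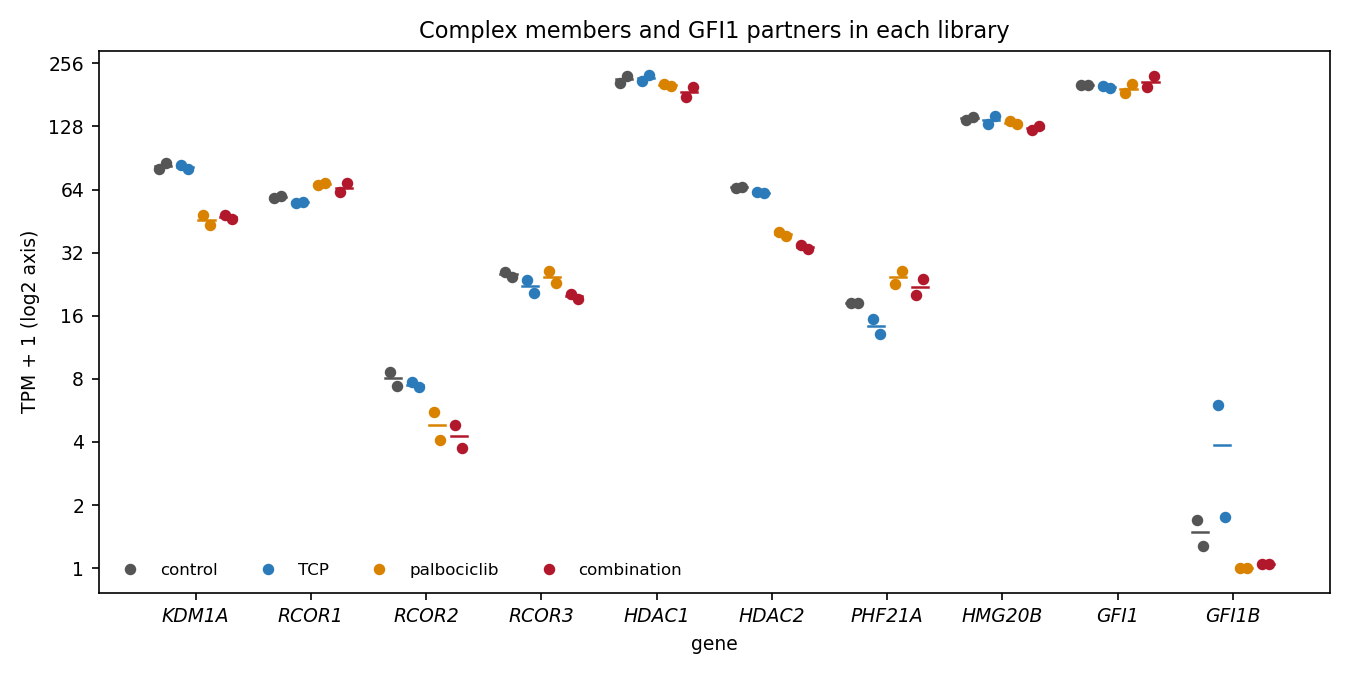
TPM + 1 on a log2 axis for the 10 members, with 1 point per library and a line at the mean of each group of 2 libraries. KDM1A and HDAC2 lie lower in all 4 libraries that received palbociclib, with or without TCP, than in the other 4, and GFI1B reaches 4.98 TPM in a single TCP library.

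The fit was made with limma on log2(TPM + 1) for the 14151 genes that reached 1 TPM in at least 2 libraries, and p-values were adjusted over all of them by the Benjamini-Hochberg method. Members passed this filter in 9 of 10 cases, and GFI1B did not. A gene counted as differentially expressed (DEG) when it moved by at least 1 on the log2 scale in either direction with an adjusted p below 0.01, and as called at an adjusted p below 0.05 whatever its size. Treatments were compared with the same control libraries, so the comparisons against control are not independent of each other. In RNA from whole cultures, fewer cells of a kind and less RNA per cell cannot be told apart.

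Marker genes fitted the labelled line, since all 7 AML genes checked (PTPRC, CD33, FLT3, SPI1, HOXA9, MEIS1 and CD4) were above 1 TPM in every library. The methods describe coculture of cell lines on HS-5 stromal cells. Summed over 13 stromal genes, the level was 13.1 and 16.7 TPM in control libraries and 17.6 and 22.6 TPM with TCP. It was 20.8 and 110 TPM with palbociclib and 29.6 and 38.2 TPM with the combination. Replicate 2 was the higher in each group. TAGLN alone held 10.9 and 8.30 TPM of the control sums and 15.2 and 14.5 TPM of the TCP sums. The higher sums with TCP than in control therefore lay in TAGLN. This gene had 13.4 and 14.1 TPM with palbociclib and 17.0 and 17.7 TPM with the combination, so it did not share the high level of palbociclib replicate 2. In palbociclib replicate 2, 8 of the 13 were above 1 TPM and COL1A1 reached 22.2 TPM, while POSTN was at 0 in all libraries. COL1A1 was at 0.185 and 1.23 TPM in control and at 2.29 and 3.78 TPM with the combination. The 10 most abundant genes held 9.12% to 9.67% of all TPM without palbociclib and 14.0% to 15.8% with it. On the log2 scale, the median of all tested genes was shifted by -0.22 in combination cells, by -0.16 in palbociclib cells and by -0.04 in TCP cells.

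TCP alone gave no called change in the complex's transcripts, which with 2 libraries a group does not show that they were unchanged. The 95% intervals ran from -0.69 to -0.06 for PHF21A and from -0.57 to 0.38 for RCOR2. Of the 9 members tested, 0 were called, beside 0.431% of all genes tested, and 0 were DEG, beside 0.0565%. In limma 1 member, PHF21A, had an unadjusted p below 0.05, beside 8.77% of all genes tested. For KDM1A, the gene of the drug's own target, the log2 fold change was -0.02, with a 95% interval from -0.21 to 0.18, so that a decrease as large as the one seen with palbociclib lies outside the interval. PHF21A had 17.4 TPM in both control libraries and 14.4 and 12.1 TPM in TCP libraries, a log2 fold change of -0.37 (standard error 0.13, limma adjusted p = 0.456). Both TCP libraries were below both control libraries for 5 of the 9 members, beside 22.3% of all genes tested.

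Under palbociclib, transcripts for the enzyme and for some of its partners were lower. KDM1A, HDAC2 and RCOR2 fell, PHF21A rose, and the other 5 tested members were not called. The 4 calls of 9 stand beside 45% of all genes tested (30.2% lower and 14.8% higher), and 0 members were DEG, beside 9.1%. The share of members called was thus near that of all genes. Palbociclib replicate 2 was the library with the most stromal transcripts. Without it, the log2 fold changes under palbociclib were -0.78 for KDM1A, -0.71 for HDAC2, -0.52 for RCOR2 and 0.30 for PHF21A.

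KDM1A had 79.6 and 85.0 TPM in control libraries, 83.0 and 79.6 TPM with TCP, 47.4 and 42.5 TPM with palbociclib, and 47.5 and 45.6 TPM with the combination. The libraries with palbociclib, alone or combined, lay far below the others without overlap. The log2 fold change was -0.86 (standard error 0.08, limma adjusted p = 0.000427) for palbociclib and -0.81 (standard error 0.08, adjusted p = 0.000315) for the combination. On the TPM + 1 scale of the fit, these are 0.551 and 0.571 of control. Compared with all genes, 8.33% had a lower value under palbociclib and 14.7% under the combination. Without palbociclib replicate 2 the change was -0.78 (adjusted p = 0.00476).

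HDAC2, a catalytic deacetylase of the complex, had 64.4 and 65.0 TPM in control libraries, 61.3 and 60.4 TPM with TCP, 39.2 and 37.6 TPM with palbociclib, and 33.6 and 32.4 TPM with the combination. All 4 libraries with palbociclib were again below all those without it, and the combination libraries were the lowest. HDAC2 fell by 0.74 on the log2 scale with palbociclib (standard error 0.07, limma adjusted p = 0.000396) and by 0.95 with the combination (standard error 0.07, adjusted p = 9.31e-05). The latter is 0.518 of control on the TPM + 1 scale. Without palbociclib replicate 2, the change with palbociclib was -0.71 (adjusted p = 0.00539). Its close paralog HDAC1 had 206 and 223 TPM in control, 209 and 223 TPM with TCP, 202 and 199 TPM with palbociclib, and 176 and 195 TPM with the combination. HDAC1 was not called in any comparison, with log2 fold changes of -0.09 (adjusted p = 0.389) for palbociclib and -0.21 (adjusted p = 0.0682) for the combination, both of which turned positive with median-ratio scaling (0.072 and 0.023). When replicate numbers entered as a block, the adjusted p for HDAC1 was 0.0244 under the combination.

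The CoREST scaffolds differed from each other. RCOR1, the most abundant, had 57.1 and 58.9 TPM in control, 54.4 and 54.7 TPM with TCP, 66.5 and 67.9 TPM with palbociclib, and 61.1 and 67.7 TPM with the combination. Both libraries of each palbociclib-containing group were above both control libraries, but the log2 fold changes of 0.21 (limma adjusted p = 0.0622) and 0.15 (adjusted p = 0.148) were not called. Under palbociclib the adjusted p was 0.0300 with the replicate block, and after quantile normalization the fold changes were 0.36 (adjusted p = 0.00899) and 0.34 (adjusted p = 0.00891).

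RCOR2, the least abundant scaffold, had 7.66 and 6.43 TPM in control, 6.73 and 6.30 TPM with TCP, 4.58 and 3.09 TPM with palbociclib, and 3.80 and 2.74 TPM with the combination. The groups with and without palbociclib did not overlap. RCOR2 fell by 0.75 on the log2 scale with palbociclib (standard error 0.20, limma adjusted p = 0.0205) and by 0.92 with the combination (standard error 0.20, adjusted p = 0.00738). Single libraries decided both calls. The palbociclib call was lost without control replicate 1 (-0.64, adjusted p = 0.107) and without palbociclib replicate 2 (-0.52, adjusted p = 0.116), and the combination call without combination replicate 2 (-0.74, adjusted p = 0.0505).

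RCOR3 had 24.9 and 23.6 TPM in control, 22.7 and 19.5 TPM with TCP, 25.2 and 21.9 TPM with palbociclib, and 19.4 and 18.3 TPM with the combination. Only the combination was called, where RCOR3 fell by 0.35 (standard error 0.11, limma adjusted p = 0.0359), and this call was lost after quantile normalization (-0.13, adjusted p = 0.281), after median-ratio scaling (-0.13, adjusted p = 0.327), without the filter on low values (adjusted p = 0.0533) and without any single library of the control or combination groups (adjusted p from 0.0852 to 0.158). Against palbociclib alone its log2 difference was -0.30 (adjusted p = 0.231).

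PHF21A, the reader of unmethylated lysine 4, had 21.7 and 25.3 TPM with palbociclib and 19.2 and 22.9 TPM with the combination, above both control libraries at 17.4 TPM. It rose by a log2 fold change of 0.41 with palbociclib (standard error 0.13, limma adjusted p = 0.0417), a call that was lost without palbociclib replicate 2 (0.30, adjusted p = 0.212), without either control library, without palbociclib replicate 1 and without the filter on low values (adjusted p from 0.0537 to 0.132 in these 4). With the combination the fold change was 0.25 (adjusted p = 0.148), and 0.47 (adjusted p = 0.0192) after quantile normalization. HMG20B, the DNA-binding subunit, ranged from 122 to 143 TPM over the 8 libraries and was not called, with log2 fold changes of -0.07 (adjusted p = 0.461) and -0.16 (adjusted p = 0.116) that turned to 0.093 and 0.074 with median-ratio scaling.

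**Figure D2:**
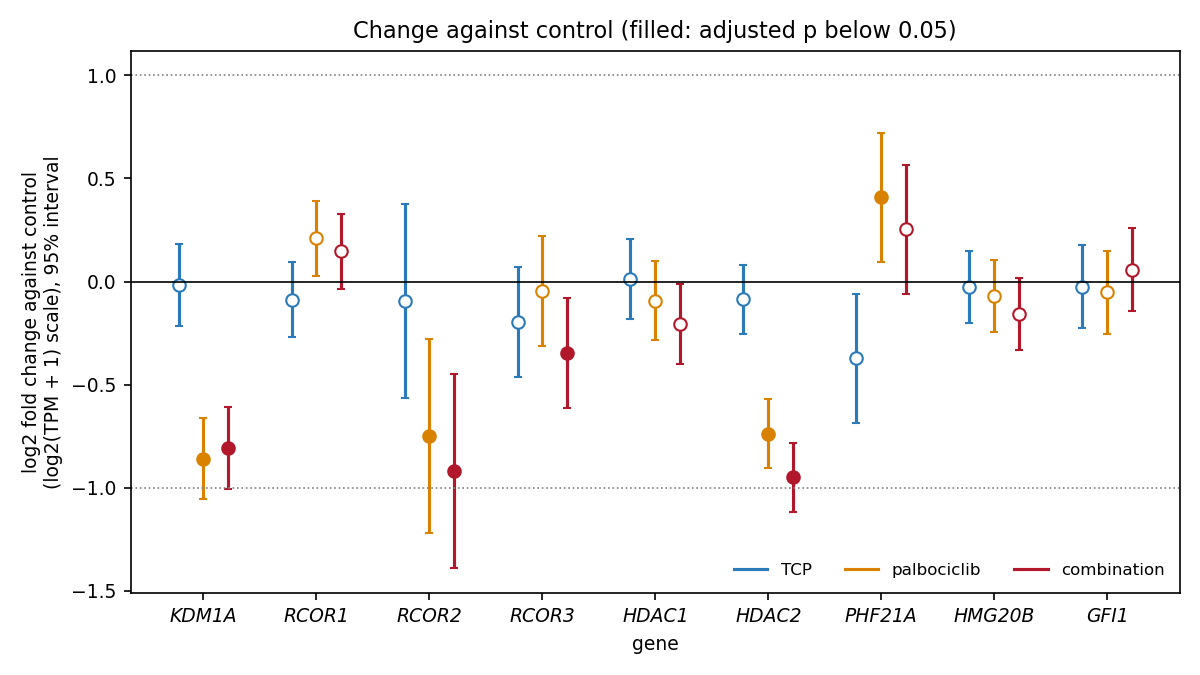
Log2 fold change against control with its 95% interval from limma for the 9 tested members, under TCP, palbociclib and the combination. Filled points have an adjusted p below 0.05 and dotted lines mark a log2 fold change of 1 in either direction. KDM1A and HDAC2 are between -0.74 and -0.95 in both groups with palbociclib, and no point passes -1.

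GFI1, the repressor that recruits the complex in myeloid cells, was not called in any comparison. It had 199.8 and 200.4 TPM in control, 199.5 and 193.6 TPM with TCP, 183 and 203 TPM with palbociclib, and 196 and 221 TPM with the combination. The palbociclib and combination libraries each overlapped those of control, while both TCP libraries were below both control libraries. The log2 fold change under the combination was 0.06, with a 95% interval from -0.14 to 0.26 (limma adjusted p = 0.598), and 0.29 (adjusted p = 0.0406) after scaling each library by its median ratio.

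GFI1B, the erythroid and megakaryocytic counterpart, was near the floor and was not tested. It had 0.691 and 0.272 TPM in control, 4.98 and 0.761 TPM with TCP, 0 in both palbociclib libraries, and 0.0441 and 0.0432 TPM with the combination. Only TCP replicate 1 passed 1 TPM. Fitted without the filter on low values, its log2 fold change under TCP was 1.15, with a 95% interval from -0.16 to 2.45 (limma adjusted p = 0.721). GATA1 and KLF1, which define the erythroid lineage, were at or below 0.119 TPM in all libraries. The megakaryocytic gene ITGA2B had 1.53 and 1.61 TPM in control, 2.15 TPM in TCP replicate 1 and 1.31 TPM in TCP replicate 2. GP1BA, also megakaryocytic, had 1.49 and 1.67 TPM in control and 2.43 and 0.960 TPM with TCP. In libraries with palbociclib, ITGA2B and GP1BA reached 3.20 and 2.45 TPM. Whether these genes go with GFI1B was not tested. The 11 erythroid and megakaryocytic genes summed to 36.9 TPM in TCP replicate 1 and to 28.9 TPM in TCP replicate 2. Their sums were higher in control (57.1 and 47.6 TPM), with palbociclib (145 and 113 TPM) and with the combination (137 and 98.7 TPM). NFE2, which is also present in myeloid cells, made up 38.1 and 26.4 TPM of the control sums and 17.6 and 12.1 TPM of the TCP sums. It made up 130 and 97.6 TPM of the palbociclib sums and 125 and 85.2 TPM of the combination sums. The differences between the groups in these sums therefore lay mostly in NFE2. EPOR, the next most abundant, went the other way, with 15.6 and 16.8 TPM in control and 9.34 and 7.60 TPM with the combination.

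With the combination, the transcripts of the enzyme KDM1A, of the deacetylase HDAC2 and of the scaffolds RCOR2 and RCOR3 fell. These 4 calls of 9 stand beside 53.6% of all genes tested (37.6% lower and 15.9% higher), and 0 members were DEG, beside 13.7%. In this comparison 6 members were lower and 2 higher in both treated libraries than in both control libraries, beside 54.2% and 26% of all genes. The median over the 9 members was -0.21, beside -0.22 over all genes tested. For RCOR3, at -0.35, 40.9% of all genes had a lower value, so its decrease was not far from that of a middle gene.

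Compared with TCP alone, the combination had less KDM1A (log2 difference -0.79, limma adjusted p = 0.000399), HDAC2 (-0.86, adjusted p = 0.000150) and RCOR2 (-0.83, adjusted p = 0.0125). PHF21A and RCOR1 were higher, by 0.63 (adjusted p = 0.00727) and 0.23 (adjusted p = 0.0395), which makes 5 calls of 9 beside 50.2% of all genes, and 0 members were DEG, beside 12.2%. Combination replicate 2 decided the calls of RCOR2 (-0.65, adjusted p = 0.0785 without it) and PHF21A (0.50, adjusted p = 0.0532 without it), and the call of RCOR1 was lost without any of 7 single libraries. Compared with palbociclib alone, limma called 0 members, beside 3.49% of all genes, and 0 were DEG, beside 0.502%. An unadjusted p below 0.05 was found for 2 members, HDAC2 and RCOR3, beside 17.5% of all genes. For KDM1A this difference was 0.05, with a 95% interval from -0.15 to 0.25, and for HDAC2 it was -0.21 (adjusted p = 0.183). The interaction of TCP and palbociclib, which asks whether the combination departs from the sum of the single changes, gave 0 calls among members and 0% of all genes in limma. No member had an unadjusted p below 0.05, beside 6.39% of all genes, and the interaction estimates ran from -0.13 to 0.22.

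Ratios within a library do not depend on the scaling between libraries. HDAC2 made up 23.8% and 22.6% of the summed HDAC1 and HDAC2 TPM in control libraries, 22.7% and 21.3% with TCP, 16.2% and 15.9% with palbociclib, and 16.1% and 14.2% with the combination. KDM1A relative to RCOR1 was 139% and 144% in control, 152% and 146% with TCP, 71.2% and 62.6% with palbociclib, and 77.8% and 67.3% with the combination. The enzyme's transcript thus exceeded that of its main scaffold in the 4 libraries without palbociclib and was below it in the 4 with it. PHF21A relative to KDM1A was 21.9% and 20.5% in control, 17.4% and 15.2% with TCP, 45.8% and 59.4% with palbociclib, and 40.3% and 50.3% with the combination. KDM1A relative to HDAC2 varied much less, from 113% to 141% over the 8 libraries. Among the scaffolds, RCOR1 made up 65.0% ± 1.85 (SD, n = 2) of the RCOR total in control and 74.4% ± 2.70 with the combination, and RCOR2 made up 8.54% and 7.23% in control libraries and 4.51% and 3.09% with the combination. These ratios are a description, with no test.

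**Figure D3:**
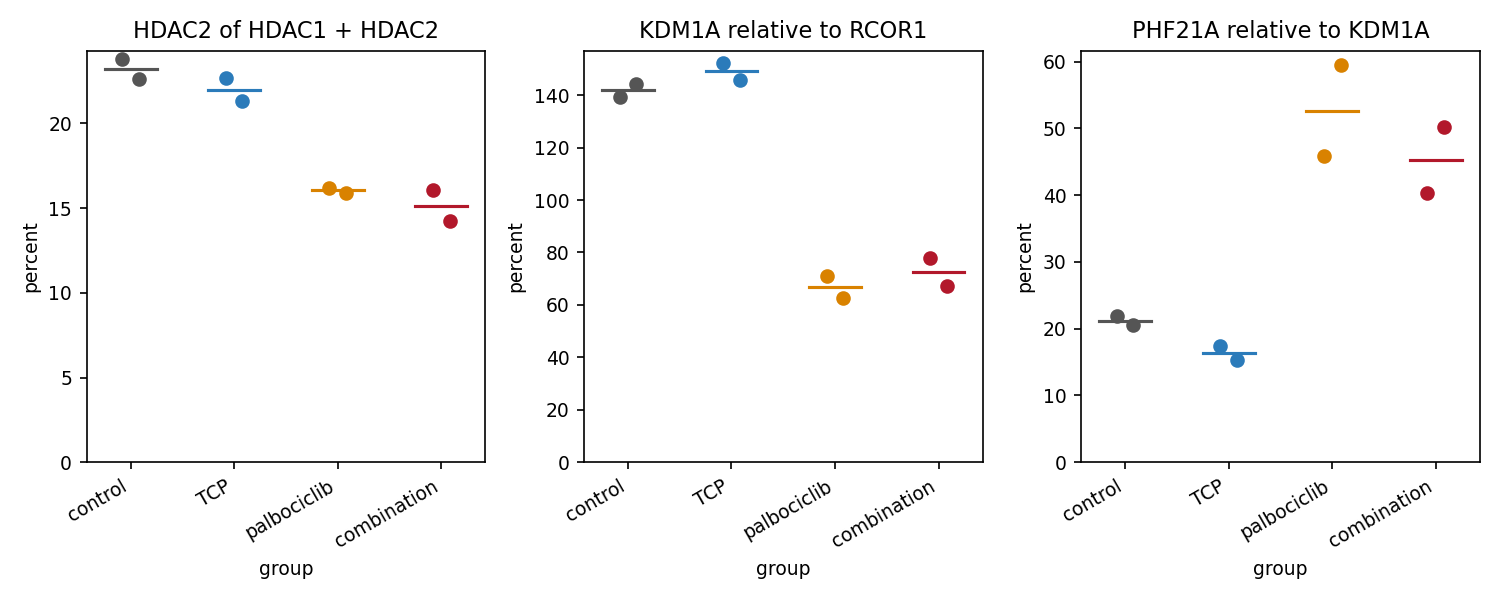
Ratios of TPM within each library, in percent: HDAC2 of the sum of HDAC1 and HDAC2, KDM1A relative to RCOR1, and PHF21A relative to KDM1A, with 1 point per library and a line at the mean of 2. In each panel the 4 libraries with palbociclib lie on the same side of the 4 without it, for example at or below 16.2% against at least 21.3% for HDAC2.

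The genes whose pattern over the 8 libraries was nearest to that of KDM1A were CTBP2, MAGOH and WDR3, with a root mean square difference of 0.0417, 0.0447 and 0.0478 in centred log2(TPM + 1), where KDM1A itself had an SD of 0.445. CTBP2 encodes a corepressor that has been purified with LSD1 and CoREST, but MAGOH and WDR3 were almost as near. Under palbociclib 30.2% of all genes tested were lower, and how many came this near to KDM1A was not counted. For GFI1, which varied little (SD 0.0754), C15orf39, HM13 and SLC5A2 were nearest, with differences of 0.0411 to 0.0453.

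Other chromatin regulators were counted alongside. Of 8 CoREST-associated genes, 4 were lower and 1 was higher under palbociclib, and 6 were lower and 1 was higher under the combination, where the median log2 fold change was -0.36. CTBP2 fell by 0.81 under the combination (standard error 0.10, limma adjusted p = 0.000549), and ZNF217, a zinc-finger protein found with CoREST, rose by 0.48 (adjusted p = 0.00444). Of 11 genes of NuRD, another HDAC1 and HDAC2 complex, 9 fell and 0 rose in both comparisons, with medians of -0.38 and -0.53. RBBP7, a histone-binding subunit, had the largest change of these under the combination, -0.94 (adjusted p = 0.000288). Of 12 genes of the SIN3, NCOR and MiDAC complexes, 4 fell under palbociclib and 5 under the combination, and of 4 other histone H3 lysine 4 demethylases 1 and 2 fell. These counts stand beside 30.2% of all genes lower under palbociclib and 37.6% under the combination.

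Among 10 genes known as GFI1 targets, 9 were tested, and 1 was higher and 4 were lower with palbociclib and with the combination. Of all genes tested, 14.8% were higher and 30.2% lower with palbociclib, and 15.9% and 37.6% with the combination. The 4 lower genes were EGR1, ID2, HOXA9 and MEIS1 in both comparisons. CSF1R, the receptor for macrophage colony-stimulating factor, had 14.6 and 14.7 TPM in control, 21.2 and 20.9 TPM with TCP, 36.4 and 37.9 TPM with palbociclib, and 86.9 and 90.7 TPM with the combination. Its groups did not overlap in any library, and it was a DEG in the combination against control (2.52, standard error 0.07, limma adjusted p = 5.85e-06) and against palbociclib (1.24, adjusted p = 0.00150). EGR1, an immediate-early transcription factor, fell by 2.11 with the combination (standard error 0.41, adjusted p = 0.00477). Of 7 other SNAG-domain genes 3 were tested, and SNAI3 rose under the combination (0.43, adjusted p = 0.0261). Of 11 erythroid and megakaryocytic genes 4 were tested, and NFE2, a transcription factor also present in myeloid cells, was a DEG, higher by 1.67 (adjusted p = 0.00223). EPOR, of the same list, was lower under the combination (-0.87, limma adjusted p = 0.000937). All 10 cell cycle genes checked fell in both comparisons, with medians of -1.15 and -1.59, and their part in the changes of the complex's genes was not tested. TCP alone gave 0 calls in limma in each of these lists, beside 0.431% of all genes tested. The log2 fold change of CSF1R under TCP was 0.50 (limma adjusted p = 0.0614).

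**Figure D4:**
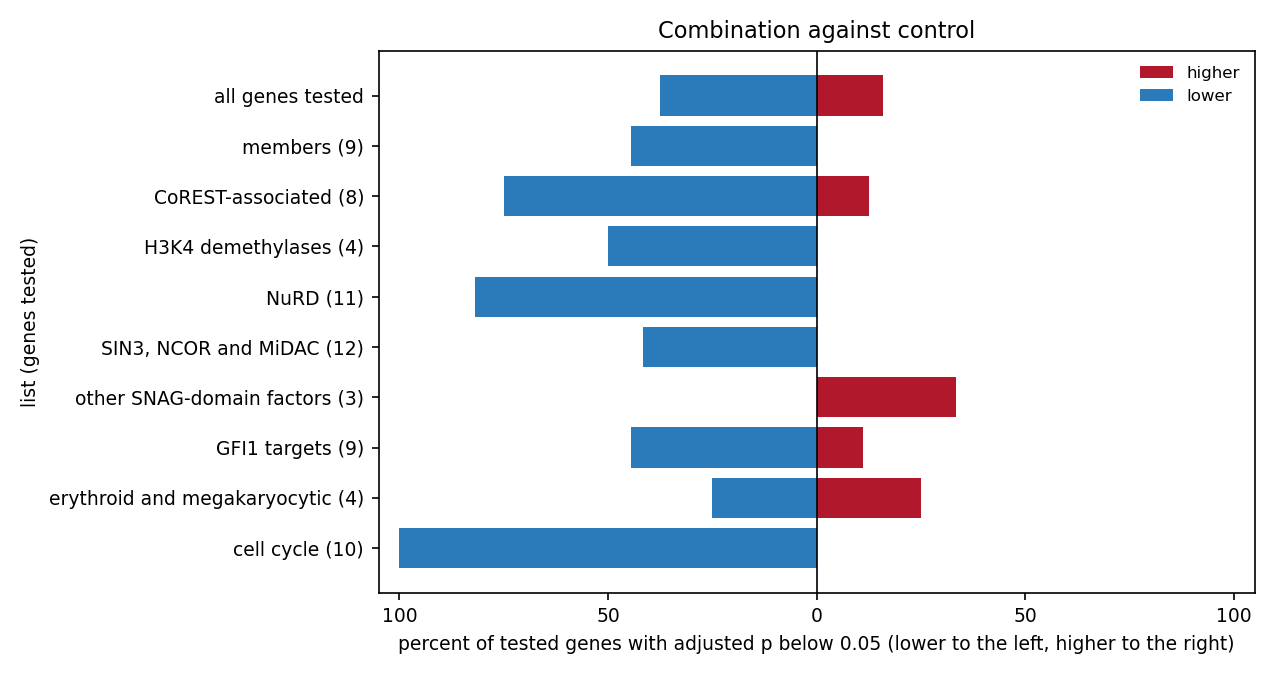
Percent of the tested genes of each list with an adjusted p below 0.05 in the combination against control, lower to the left and higher to the right, with the number tested in parentheses and all genes tested at the top. Of the members 4 of 9 are lower, beside 37.6% of all genes, whereas all 10 cell cycle genes are lower.

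On GRCh37, the build of hg19, KDM1A lies on chromosome 1 from 23345936 to 23410182, HDAC2 on chromosome 6 from 114254192 to 114332472 and RCOR2 on chromosome 11 from 63678702 to 63684636. GFI1 lies on chromosome 1 from 92938600 to 92952482 and GFI1B on chromosome 9 from 135819387 to 135867074. In this annotation HMG20B and GFI1B overlap the protein-coding genes MFSD12 and TSC1 on the opposite strand. KDM1A (ENSG00000240553 and MIR4419A), HDAC2 (HDAC2-AS2), PHF21A (ENSG00000254653) and RCOR1 (RPL23AP11) overlap noncoding genes or a pseudogene there. The strand setting of the counting is not given in the sources used here, so reads of a member and of such a partner cannot be told apart. HDAC1 has processed pseudogenes, HDAC1P1 and HDAC1P2, that could share its reads.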

How the data were processed

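RNA from 8 libraries of MV4-11 cells, 4 groups of 2, was prepared with a stranded mRNA kit. Per the paper's methods, the authors aligned reads to hg19 using subread-align, obtained gene counts from featureCounts (1.6.4 in the submitters' processing notes) and deposited TPM. Annotation, gene lengths and strand setting are not given in the sources used here. The authors tested counts with DESeq2 1.26.0, whereas only the deposited TPM were analysed here. TPM keep no depth, so the depth of each library is unknown and no counting interval is given.

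Log2(TPM + 1) was fitted with limma 3.58.1 in R 4.3.3, with moderated variances and a mean-variance trend, over all 8 libraries (4 residual degrees of freedom). The filter of 1 TPM in 2 or more libraries kept 14151 of 26364 genes, and 6 comparisons were made. Fold changes on this scale understate changes of low genes. The model was tested on simulated data whose planted changes were larger than those of any member and whose replicates were not paired. That check therefore says nothing on calls of the size seen here. The members and gene lists were chosen with earlier results of these data known. All members are named. From each list up to 4 genes were to be named, those that were DEG in the combination against control with the largest change, and other list genes were named after their values were seen. The nearest genes are the 3 with the smallest root mean square difference over the 8 libraries. AML and cell cycle lists served as checks.

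The groups share replicate numbers. Across genes, libraries with the same number deviated together from the means of their groups (r between 0.169 and 0.491 in the 6 pairs of groups). They were taken as paired, from these values and no statement in the labels. The main model has no block, so its p-values and the shares of all genes beside them leave out this pairing. With the replicate block, limma called 7849 genes under palbociclib and 8711 under the combination, against 6369 and 7581 without it. Alternatives were a pseudocount of 0.1, no filter, a filter on a mean of 5 TPM, quantile normalization, median-ratio scaling, the replicate block, no trend, only the groups compared, and each library left out. Promoters came from RefSeq (GRCh38.p14). The motif window was the 250 bases before the start, and its extension by 30 bases was added after the result of the shorter window had been seen. Coordinates of genes are from GENCODE on GRCh37.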

Additional observations from a re-analysis of the deposited data

How the results depend on the processing

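KDM1A and HDAC2 kept their direction and an adjusted p below 0.05 in palbociclib and in the combination, against control and against TCP, under all 16 alternatives. Their size varied. The smallest decreases against control were -0.70 for KDM1A and -0.58 for HDAC2 under palbociclib, and -0.58 and -0.72 under the combination. Of 512 settings over 32 fold changes of single members, 454 kept direction and call, 26 lost a call, 9 gained a call and 23 changed sign. The number of members that were DEG in the combination against control was 1 with a pseudocount of 0.1 (RCOR2, -1.10) and 0 otherwise. With 1 library left out, members with an adjusted p below 0.05 ranged from 2 to 4 for palbociclib (2 without control replicate 1 or palbociclib replicate 2), from 2 to 4 for the combination and from 2 to 5 for the combination against TCP (2 in both without combination replicate 2). The replicate block gave 5 members for palbociclib, 5 for the combination and 6 against TCP, and changed no other call of a member than those of RCOR1 under palbociclib (0.21) and HDAC1 in the combination against control and against TCP (adjusted p = 0.0244 and 0.0205).

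Sign changes concerned values that were not called. With median-ratio scaling and quantile normalization, the values under palbociclib were 0.11 and 0.057 for GFI1, 0.072 and 0.017 for HDAC1, 0.093 and 0.044 for HMG20B, and 0.11 and 0.11 for RCOR3, and under TCP 0.028 and 0.012 for KDM1A. With median-ratio scaling, GFI1 and HMG20B were at 0.020 and 0.017 under TCP, and HDAC1 and HMG20B at 0.023 and 0.074 under the combination. With 1 library left out, values under TCP ranged from -0.043 to 0.069 for HDAC1, -0.090 to 0.033 for HMG20B, -0.063 to 0.029 for KDM1A and -0.20 to 0.016 for RCOR2. Under palbociclib they ranged from -0.13 to 0.020 for GFI1 and -0.14 to 0.052 for RCOR3, and under the combination from -0.030 to 0.14 for GFI1. The cause was not tested.

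Over all genes, calls at an adjusted p below 0.05 under TCP numbered 61, 197 with the block, 40 without the filter, 0 with only the groups compared and from 4 (without control replicate 1) to 32 with 1 library left out. For the combination against palbociclib they numbered 494, 1255 with the block, 269 with only the groups compared and, with 1 library left out, from 23 (without combination replicate 1) to 593, with 28 without combination replicate 2, 55 without palbociclib replicate 1, 110 without palbociclib replicate 2, and 248 and 251 without control replicate 1 and 2. The share of calls that were higher in the combination against control was 29.8% as deposited, 44.3% after quantile normalization and 50.1% after median-ratio scaling, and 32.8%, 45.4% and 50.3% for palbociclib. The TPM give no depth, so low genes such as GFI1B and RCOR2 have an unknown counting error.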
